A study of Mus musculus with 2 samples.

Results

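Advillin and its relatives, the gelsolin-villin family of actin-binding proteins, were followed in 661W cells grown with and without choline. The family was taken as the non-control spots whose gene name in the array files is Avil, Vil1, Vill, Gsn, Scin, Svil, Capg or Flii. This gave 8 genes and 12 spots, of 29608 gene names and 43020 non-control spots in all. Of the 8 genes, 7 were measured on both arrays, through 11 of the 12 probes, among 19816 measured genes. The family was chosen by the measured difference between the arrays, of which Avil had the largest of all genes, so every value of the members in that comparison is a description and none is a test.

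661W is a mouse cell line described as photoreceptor-derived. The cells were kept for 3 days in DMEM/F12 medium, either choline-deficient or choline-sufficient, and the labels give 8.98 g/L for the sufficient medium, a figure whose unit could not be checked and may be mg/L. The labels give 10% fetal bovine serum as part of the culture medium, and do not say whether the serum was freed of choline. Total RNA of 1 choline-deficient and 1 choline-sufficient sample was labelled with Cy3 and hybridised to 1 Agilent single-colour array each, and the design text mentions pooling over 4 dishes. Each group has 1 array, so no difference can be set against a spread between replicates and none is tested.

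Proteins of this family are built from repeats of the gelsolin domain, and several of them sever actin filaments, cap their fast-growing ends or nucleate new filaments when calcium rises. The membrane lipid PIP2 turns many of these activities off. Villin and advillin carry in addition a headpiece that lets them bundle filaments. In the mouse, advillin is known from sensory neurons and tuft cells, villin from the brush border of the gut, and gelsolin from many tissues, where it remodels the cytoskeleton and also occurs in a secreted form.

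The probe letters show which piece of each transcript the arrays read for the members that were at least 2-fold apart, and they are given for that reason. All positions are those of the array files, on the mouse build mm9. The Avil probe (NM_009635) lies on the plus strand at chr10:126453541-126454065. Its 60 bases are spread over 525 bases of genome, so they come from pieces that are not adjacent in the genome. The gelsolin probes lie at chr2:35163342-35163401 and chr2:35163358-35163417, the Capg probe at chr6:72512913-72512972 and the Vill probe at chr9:118980384-118980443, all on the plus strand. Of the 9 probes of members other than Svil, 4 hold AATAAA, the letters of the polyadenylation signal, and these 4 are the gelsolin, Capg and Vill probes. Whether these copies act as signals was not tested. The gelsolin probes hold the same copy of the letters, which is counted for both, and the Svil probes were left out of this count. The letters AATAAA occur in 12.6% of the 39429 non-control probes of the same length, and on the opposite strand in 4.03% of those and in 0 of the 9. For each of these 4 probes the 30 bases around these letters are printed, with AATAAA in capitals. The Avil probe is printed whole, does not hold AATAAA and reads without a stop codon in 1 of its 3 forward frames.
Avil: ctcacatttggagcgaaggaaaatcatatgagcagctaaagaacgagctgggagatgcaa
Gsn, first probe: tactttggaaatgaaagccAATAAAagctt
Gsn, second probe: gaaatgaaagccAATAAAagctttttgaag
Capg: ctctggatgctcAATAAAggacacattcca
Vill: ctcccacttcctAATAAAagccagtggctg
The gelsolin probes share 44 of their 60 bases, so they read nearly the same stretch and are no independent measurements of the gene.

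The signal of a spot is the scanner software's processed intensity, which is background-subtracted. A level is the log2 of this signal minus the log2 of the array's 75th percentile, which was 1609 on the choline-deficient and 1280 on the choline-sufficient array. A difference is the choline-deficient minus the choline-sufficient level, and the error after each ± is propagated from the software's errors of both spots. That error is set mostly by a fixed proportional term of the software's model, and says nothing of how cultures of the same medium differ. Of the non-control spots, 30435 were well above background on the choline-deficient array, against 29467 on the choline-sufficient array. Among the photoreceptor markers, 9 of 20 were measured on both arrays. The rod and cone genes Crx, Nrl, Rcvrn, Pdc, Pde6b, Opn1sw and Cngb3 did not stand well above background on either array. These defining genes of the labelled cell type could therefore not be measured. The 9 that were measured included the cone genes Gnat2, Opn1mw, Arr3, Gngt2, Thrb and Rxrg.

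Avil was much lower in choline-deficient cells. Its spot had a processed signal of 36.8 on the choline-deficient array, against 3508 on the choline-sufficient array. The log2 difference was -6.91 ± 0.21, which is 119.9-fold lower after scaling, and 0 of the other 19815 measured genes lay lower. The gene with the next lowest difference, the aldo-keto reductase gene Akr1b7, had a difference of -5.67. In RNA from whole cultures, fewer cells that express a gene and less RNA of it per cell cannot be told apart.

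The Avil spot on the choline-deficient array was dim but above the negative controls. The raw mean of the spot was 62.5 on that array, with a local background of 28 and a pixel SD of 12.2 over 57 pixels. The 153 negative control spots of the same array had a raw mean of 25.2 ± 1.21 (SD) and none was over 29.3. On the choline-sufficient array the raw mean was 3471 over a local background of 26, with a pixel SD of 408 over 66 pixels. The processed signal of 36.8 was 8.85 times the lowest signal that the software called well above background on that array. Avil thus passed the background call on both arrays.

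How large the fold is depends on what is subtracted from that dim spot. From raw signals without scaling between arrays, Avil was 99.7-fold lower after subtraction of the local background and 55.5-fold lower with none subtracted. With the normexp correction, which adds an offset of 50 to each signal, the scaled difference was -5.60, or 48.5-fold. It was between -7.03 and -6.60 under the other alternatives that gave a value. The spots around it did not share the shift: of 24 non-control spots within 2 rows and 2 columns, 16 were well above background on both arrays, and their differences ran from -0.69 to 1.83 with a median of 0.06. The gene has 1 probe and 1 spot on this array, so there is no second reading of it. Among the 5150 genes with at least 2 measured probes, 192 had a probe at least 4-fold apart, and in 121 of these (63.0%) every probe was at least 2-fold apart in the same direction.

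**Figure D1:**
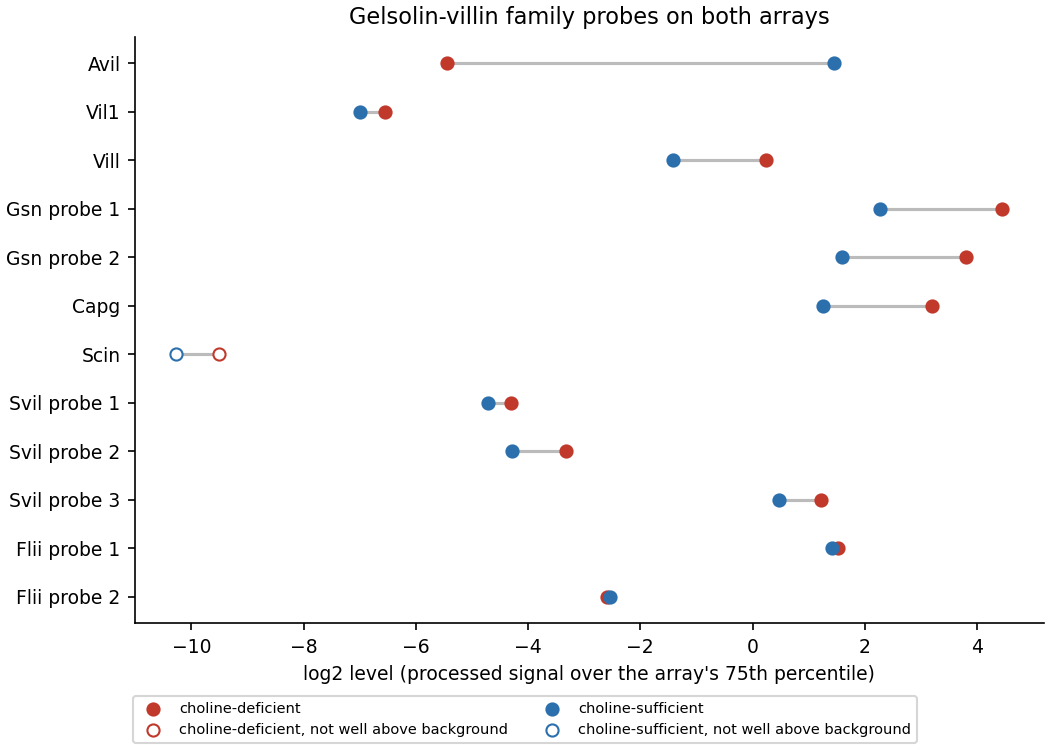
Log2 level of each of the 12 probes of the family on the choline-deficient array (red) and the choline-sufficient array (blue); open circles are not well above background, and probes of a gene are numbered by position. The Avil points lie at -5.45 (choline-deficient) and 1.45 (choline-sufficient), while Gsn, Capg and Vill have the red point to the right; levels of different probes cannot be compared with each other, since each probe binds with its own strength.

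Among the relatives of advillin that also carry a villin name, Vill was higher in choline-deficient cells and Vil1 was too dim to show a drop of the size seen for Avil. Vill, which encodes a villin-like protein, had a processed signal of 1902 on the choline-deficient array and 477 on the choline-sufficient array. It was 3.17-fold higher in choline-deficient cells, a difference of 1.66 ± 0.20, and 538 of the measured genes had a higher difference. Vil1, the villin gene of gut and kidney microvilli, was read at chr1:74481982-74482041 and was close to background on both arrays. Its processed signal was 17.2 on the choline-deficient array and 10.1 on the choline-sufficient array. The difference of 0.44 ± 0.26 was less than 2 times its error, and it turned to -0.15 with the normexp correction, so no direction is given for Vil1.

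Gelsolin was the member with the largest difference in the other direction. The first probe of Gsn had a processed signal of 35281 on the choline-deficient array and 6165 on the choline-sufficient array. The second had 22614 on the choline-deficient array and 3869 on the choline-sufficient array. Both probes were brighter in choline-deficient cells by nearly the same factor, as is likely for probes that overlap. Their differences were 2.19 and 2.22, and the gene as a whole was 4.60-fold higher, at 2.20 ± 0.20. Of the measured genes, 226 (1.14%) had a higher difference than Gsn.

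Capg, the gene of a capping protein that blocks filament ends but does not sever, was higher in choline-deficient cells, as gelsolin was. Its processed signal was 14731 on the choline-deficient array and 3043 on the choline-sufficient array. The difference was 1.94 ± 0.20, or 3.85-fold higher in choline-deficient cells. Scin, which encodes the severing protein scinderin (adseverin) known from secretory cells, was read at chr12:40786517-40786576 and was not well above background on either array. Its processed signals were 2.20 on the choline-deficient array and 1.04 on the choline-sufficient array, and no fold is given for it.

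**Figure D2:**
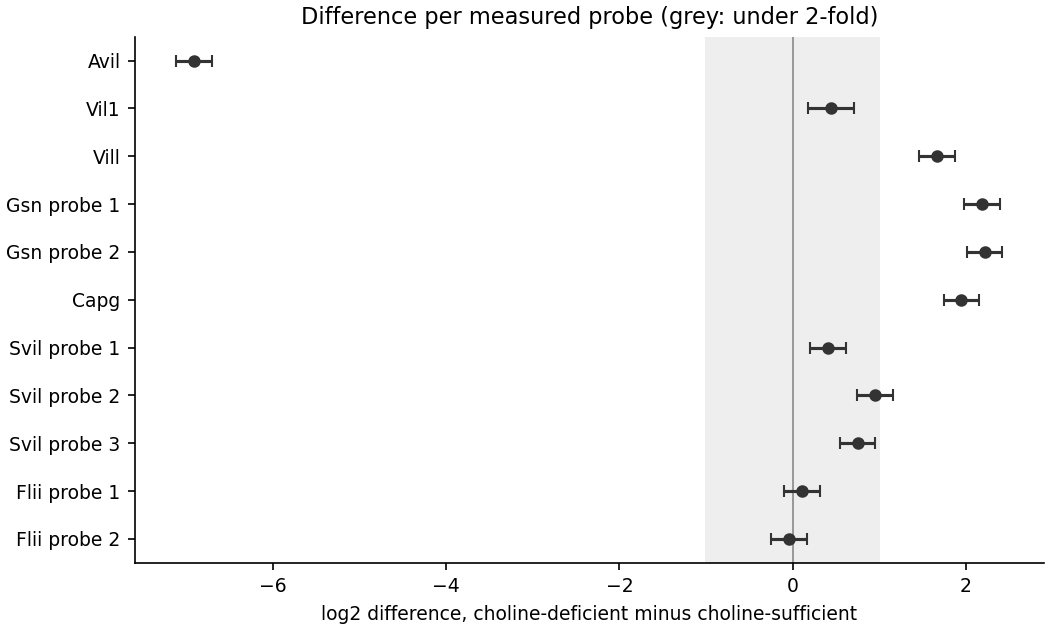
Log2 difference (choline-deficient minus choline-sufficient) of each measured probe with the propagated array error; the grey band is under 2-fold. Avil lies at -6.91, and the probes of Gsn, Capg and Vill lie between 1.66 and 2.22.

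The large members of the family, supervillin and flightless, differed less. Svil encodes supervillin, which ties actin and myosin to membranes, and it had 3 probes along chromosome 18. The processed signals at 5049365 to 5049424, the most upstream of them by position, were 81.5 on the choline-deficient and 48.9 on the choline-sufficient array. At 5058328 to 5058387 they were 160 on the choline-deficient and 66.0 on the choline-sufficient array. At 5118987 to 5119046 they were 3771 on the choline-deficient and 1784 on the choline-sufficient array. All 3 probes were brighter in choline-deficient cells, with differences of 0.40, 0.95 and 0.75, and the gene averaged 0.70 ± 0.21, or 1.62-fold. Flii encodes flightless, a protein with gelsolin domains and leucine-rich repeats that also acts as a coregulator in the nucleus. Its probe at 60527769 to 60527828 on chromosome 11 had 4635 on the choline-deficient and 3425 on the choline-sufficient array, and its probe at 60532352 to 60532411 had 267 on the choline-deficient and 219 on the choline-sufficient array. After scaling the differences were 0.11 and -0.04, and the mean of 0.03 ± 0.20 was smaller than its error and turned to -0.09 with median scaling.

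The members did not move one way. Of the 7 measured members, 3 (Gsn, Capg and Vill) were at least 2-fold higher in choline-deficient cells, where 7.67% of all measured genes were, and 1 (Avil) was at least 2-fold lower, where 3.88% were. At 1.5-fold, 5 of the 7 were apart, where 28.9% of all measured genes were, and at 2-fold 4 of the 7, where 11.6% were. The family was chosen in this same comparison, so nothing is read from these counts. The median over the 7 was 0.70 and over the 6 other than Avil 1.18, against -0.10 for all measured genes. The central 95% of all measured genes lay between -1.16 and 1.71, which leaves Avil below it, Gsn and Capg above it and Vill, Svil, Vil1 and Flii inside. The members thus spanned 9.11 log2 units between Avil and Gsn.

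**Figure D3:**
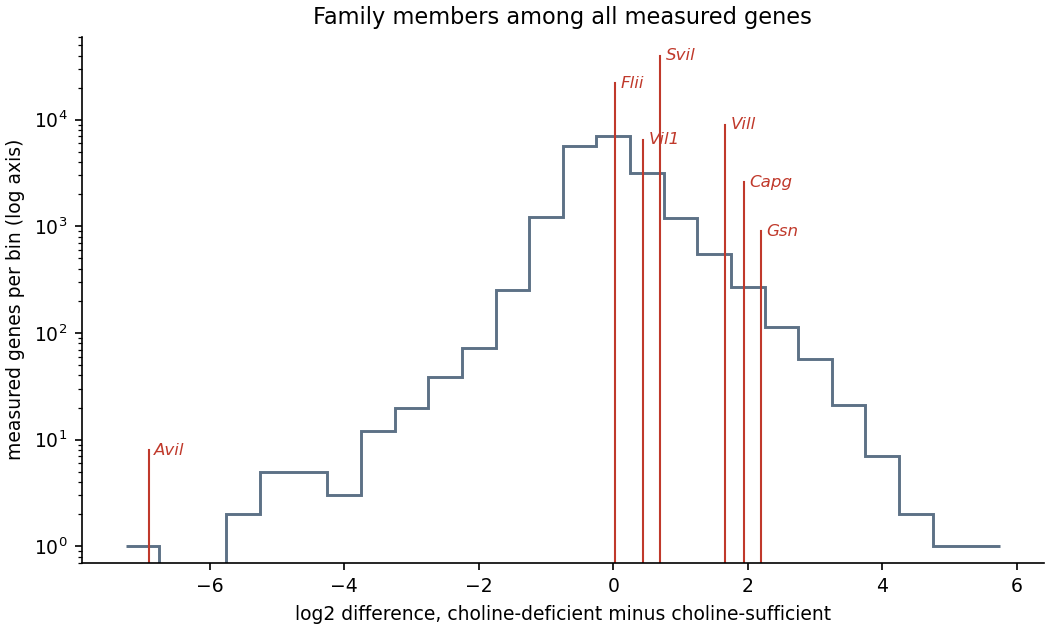
Number of measured genes (log axis) by log2 difference between choline-deficient and choline-sufficient cells, in bins of 0.5, with the 7 measured members marked by red lines whose heights only separate the names. Avil is alone in the leftmost bin, Flii, Vil1 and Svil stand in the bulk, and Vill, Capg and Gsn stand in the right flank.

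The actin filament itself, on which the family acts, was followed through lists of other genes. These lists and the marker lists below were chosen with earlier results of these data known, so their counts are descriptions. Of 5 measured actin isoforms, 2 were at least 1.5-fold higher in choline-deficient cells and 0 lower, where 14.8% of all measured genes were higher and 14.1% lower. With spike-in scaling, quantile normalization and cyclic loess 3 of the 5 were higher, where 25.6%, 14.1% and 16.3% of all genes were. Their median, 0.49 as reported, ran from 0.08 to 0.79 over the settings. Acta2, the smooth muscle actin also made by contractile fibroblasts, was 3.89-fold higher (1.96 ± 0.20), and the skeletal muscle isoform Acta1 2.65-fold higher (1.41 ± 0.20). The cytoplasmic isoforms that make up most actin of a cell differed little, with Actb at -0.25 ± 0.20 and Actg1 at 0.49 ± 0.20, whose 5 probes ran from -0.08 to 0.99. The smooth muscle isoform Actg2 was at -0.04 ± 0.21, and Actc1 was not well above background on either array.

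Genes under the serum response factor SRF and its MRTF partners, which respond to the pool of free actin, were more often higher than lower. The list of 19 genes was chosen with earlier results of these data known, so its counts are a description and not a test. It also holds the genes of SRF and of its MRTF partners themselves, each less than 1.5-fold apart. Of the 19, 11 were at least 1.5-fold higher in choline-deficient cells and 0 lower. The median was 0.70 against -0.10 for all measured genes, of which 14.8% were higher and 14.1% lower. Over the other processing settings, 8 to 16 of the listed genes passed this size and 0 were lower. The 16 were found with spike-in scaling, where 25.6% of all genes were higher, and normexp gave 8, where 8.42% were. Fhl2, a LIM-domain coactivator, was 4.65-fold higher (2.22 ± 0.20), and Myl9, the regulatory light chain of smooth muscle myosin, 3.15-fold higher (1.66 ± 0.20).

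Other genes that cap, cut or recycle filaments had differences between -0.85 and 1.75. Of 27 measured genes in this list, 8 were at least 1.5-fold higher in choline-deficient cells and 1 lower, against 14.8% of all measured genes higher and 14.1% lower, and the median was 0.25. The actin-sequestering peptide gene Tmsb10 was 3.36-fold higher (1.75 ± 0.20) and the cyclase-associated protein gene Cap2 2.61-fold higher (1.39 ± 0.21). The cofilin gene Cfl2, whose product severs filaments by another route, was 1.80-fold lower (-0.85 ± 0.20). Of the 18 measured genes for bundling, cross-linking and microvilli, 4 were at least 1.5-fold higher and 1 lower, with a median of 0.29. Mtss1, which bends membranes and binds actin, was 3.20-fold higher and the cross-linker gene Actn1 2.49-fold higher, while Espn, which encodes the bundling protein espin, was 1.73-fold lower (-0.79 ± 0.20).

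The genes that start filaments had a median near that of the whole array. Of 23 measured nucleation genes, 4 were at least 1.5-fold higher in choline-deficient cells and 1 lower, with a median of -0.03. Of all measured genes 14.8% were higher, so the count of higher genes is near that share, and 14.1% were lower. The count of lower genes was 4 with median scaling and 0 with cyclic loess. The formin genes Daam2 and Fmnl3 were 3.26-fold and 1.92-fold higher, and the nucleator gene Cobl was 1.502-fold lower. The list of PIP2 kinases, phosphatases and phospholipases C had 18 measured genes and a median of 0.17. Of these genes 6 were at least 1.5-fold higher and 1 lower, with the same 14.8% of all measured genes higher and 14.1% lower. Plcb3, a phospholipase that splits PIP2, was 2.78-fold higher (1.48 ± 0.20), the PIP2 phosphatase gene Ocrl 2.34-fold higher, and the lipid kinase gene Pip4k2c 2.20-fold lower (-1.14 ± 0.20).

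**Figure D4:**
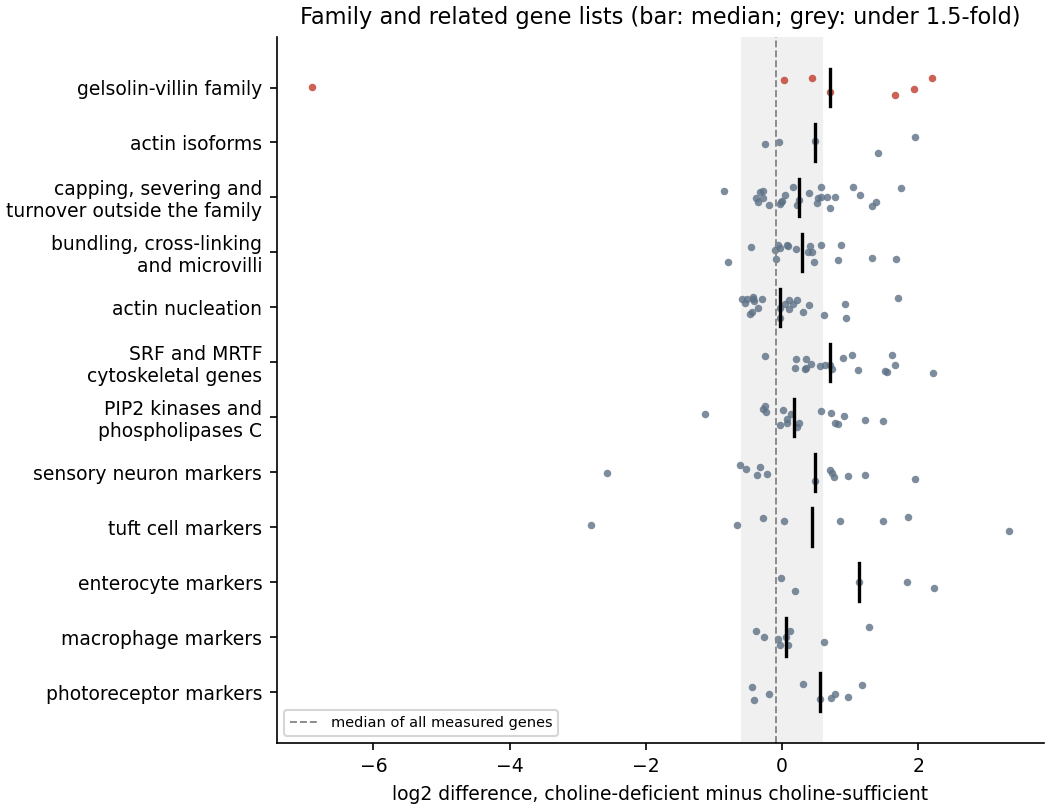
Log2 difference between choline-deficient and choline-sufficient cells of each measured gene of the family (red, top) and of 11 related gene lists (grey-blue), with list medians as black bars, all measured genes' median as a dashed line and the range under 1.5-fold in grey. The SRF and MRTF list has 11 of 19 genes to the right of the grey range and 0 to the left, and the single red point far to the left is Avil.

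Markers of the cell types that are known for these genes were measured beside them, and their part in the differences was not tested. Of 17 sensory neuron markers, 13 were measured, of which 6 were at least 1.5-fold higher in choline-deficient cells and 2 lower, where 14.8% of all measured genes were higher and 14.1% lower. With normexp 3 were higher and 1 lower, where 8.42% of all measured genes were higher. The median difference, 0.49 as reported, was -0.11 with normexp. The summed scaled signal of the list was 2.72 on the choline-deficient array and 1.83 on the choline-sufficient array. P2rx3, the ATP receptor gene of pain-sensing neurons, was 5.95-fold lower (-2.57 ± 0.22), with its 4 probes between -3.50 and -1.85. Pou4f1, a transcription factor gene of these neurons, was 1.54-fold lower (-0.62 ± 0.24) but close to background. Its levels were -6.97 on the choline-deficient and -6.35 on the choline-sufficient array, so this drop is uncertain. The neuropeptide gene Tac1 was 3.89-fold higher and Runx1 2.33-fold higher. Tac1 was close to background on the choline-sufficient array, at a level of -6.41, so the size of its rise is uncertain. The sodium channel genes Scn9a and Scn10a were not well above background on either array.

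Of 18 tuft cell markers, 8 were measured, with 4 at least 1.5-fold higher in choline-deficient cells and 2 lower, against the same shares of all genes. With normexp 3 were higher and 1 lower, where 8.42% of all measured genes were higher. The kinase gene Dclk1 was 10.1-fold higher (3.33 ± 0.21, 3 probes between 3.11 and 3.49). Sh2d6 was 6.99-fold lower (-2.80 ± 0.21). The tuft cell transcription factor gene Pou2f3 was 1.59-fold lower (-0.67 ± 0.30) but close to background. Its levels were -7.47 on the choline-deficient and -6.81 on the choline-sufficient array, so this drop is uncertain. Trpm5, Gnat3, Il25, Sucnr1, Alox5, Gfi1b, Siglecf, Il17rb, Hpgds and Rgs13 were not well above background on either array. The median difference was 0.45, or -0.22 with no filter, and the summed scaled signal of the measured genes was 5.77 on the choline-deficient and 2.11 on the choline-sufficient array. Most of that sum was the cyclooxygenase gene Ptgs1, singled out after its values were seen, at 4.61 on the choline-deficient and 1.65 on the choline-sufficient array, and such sums weigh genes by the strength of their probes. P2rx3 and Sh2d6 were the 2 genes of these marker lists that were at least 2-fold lower, as Avil was.

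Gut and macrophage markers, which bear on Vil1 and Capg, gave few measured genes. The share of all measured genes at least 1.5-fold higher was 14.8%, or 8.42% with normexp, and is the background of their counts. Of 12 enterocyte markers, 5 were measured and 3 were at least 1.5-fold higher in choline-deficient cells, among them the peptidase gene Anpep (4.68-fold) and the lactase gene Lct (3.58-fold). Lct was close to background on the choline-sufficient array, at a level of -6.68, so the size of its rise is uncertain. Fabp1, Alpi, Apoa4, Krt20, Cdx2 and Slc5a1 were not well above background on either array. With normexp 1 of the 5 was higher. The measured enterocyte markers had a median difference of 1.14, which was 0.14 with normexp and 0.092 with no filter. Their summed scaled signal was 0.654 on the choline-deficient and 0.156 on the choline-sufficient array. Most of that sum was Anpep, at 0.585 on the choline-deficient and 0.125 on the choline-sufficient array. Of 14 macrophage markers, 9 were measured, 2 were at least 1.5-fold higher and 0 lower, with Aif1 2.43-fold and Cd14 1.54-fold higher, and with normexp 0 of the 9 were higher. Lyz2, Tyrobp, Mrc1 and C1qa were not detected well above background, the median difference was 0.06, and the summed scaled signal of the list was 0.601 on the choline-deficient and 0.481 on the choline-sufficient array. Of the 9 measured photoreceptor markers, 4 were at least 1.5-fold higher and 0 lower, with Thrb 2.26-fold and the rod phosphodiesterase gene Pde6a 1.95-fold higher. On the choline-sufficient array both were close to background, at levels of -6.31 for Thrb and -6.28 for Pde6a. With normexp 0 of the 9 were higher. Their median difference was 0.56, but -0.20 with normexp and -0.19 among the brighter probes, where 1 gene was left, so no direction is given for this list. The list summed to 1.08 on the choline-deficient and 1.005 on the choline-sufficient array. Most of that sum was Rxrg, at 0.606 on the choline-deficient and 0.693 on the choline-sufficient array.

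The genes that flank Avil on chromosome 10 were read beside it. Avil had the lowest difference of all measured genes, so none of them could show a drop of its size. In the order of the RefSeq annotation of GRCm38.p6, the genes before it are Lrig3, Atp23 and Ctdsp2. Ctdsp2, its immediate neighbour, encodes a phosphatase of RNA polymerase and differed by 0.22 ± 0.20 over 3 probes. Atp23 differed by 0.03 ± 0.20 and the receptor-like gene Lrig3 by 0.73 ± 0.20. After Avil come Tsfm, a mitochondrial translation factor gene, at -0.24 ± 0.21, Eef1akmt3, a methyltransferase gene, at -0.59 ± 0.21 and Mettl1, a tRNA methyltransferase gene, at -0.66 ± 0.20. All 6 neighbours were measured, and each was less than 2-fold apart. Of all measured genes only 11.6% were at least 2-fold apart, so little is read from this count.

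The genes whose pair of levels lay nearest to that of Avil were Akr1b7, Mamdc2, Ifitm6, Saa3 and B4galnt2. The measure was the distance between the pairs of log2 levels over the 2 arrays, which was 0.998 for Akr1b7 and between 1.39 and 1.99 for the others. Their differences were -5.67 for Akr1b7, -5.09 for Mamdc2, -5.11 for Ifitm6, -4.65 for Saa3 and -4.85 for B4galnt2. All 5 were measured by 1 probe, as Avil was. A likeness over 2 arrays rests on 1 difference only, and levels of different probes also carry the strength of each probe.

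**Figure D5:**
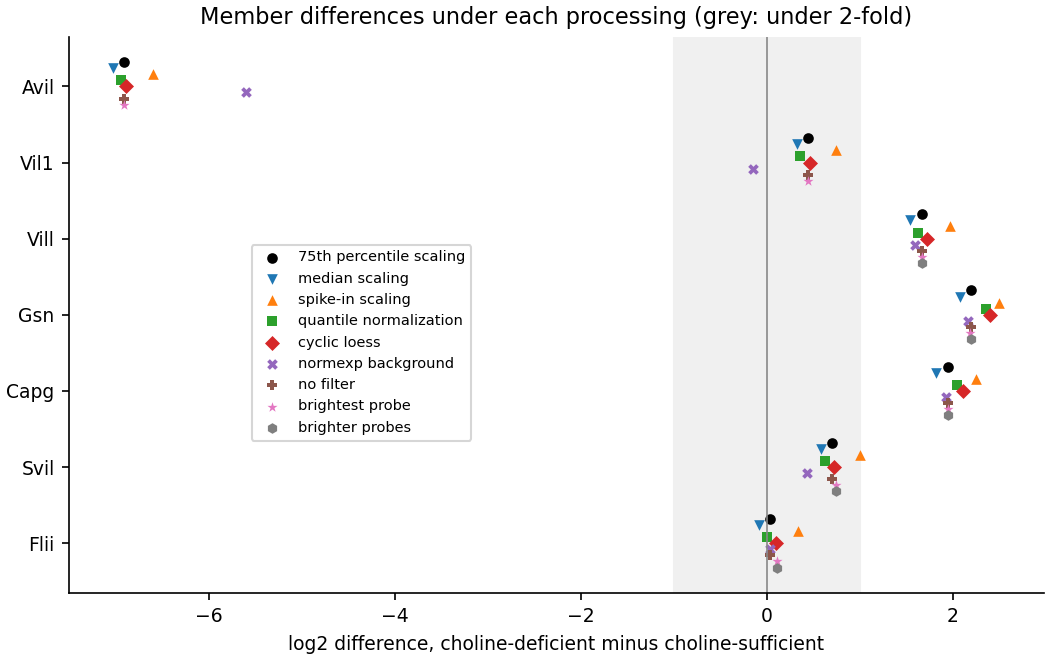
Log2 difference between choline-deficient and choline-sufficient cells of each measured member under 9 ways of processing (one symbol each), with the range under 2-fold in grey; the deposited value table gave the same values as 75th percentile scaling and is not drawn. Avil lies between -7.03 and -5.60, with the normexp value at the right end, and it has no value among the brighter probes; Gsn, Capg and Vill stay to the right of the grey range, and Vil1 and Flii cross 0.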

How the data were processed

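The deposited scanner files give intensity values for each spot. The submitters' processing notes name Agilent Feature Extraction, version 12.1.1.1. Per the file headers, the software subtracted a spatial background and corrected a multiplicative trend within each array. The software's calls and pixel numbers were used as deposited. Each entry of the authors' deposited value table is a ratio of processed signal to 1609 on the choline-deficient and 1280 on the choline-sufficient array, which equal their 75th percentiles. It is linear, not centred per gene, and has medians of 0.0409 and 0.0376 over the choline-deficient and choline-sufficient array's non-control spots.

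Signals were set to log2 minus the 75th percentile. Control spots and outlier spots (92 choline-deficient, 86 choline-sufficient) were dropped. Replicate spots were averaged per probe, and a probe was measured when well above background and unsaturated on both arrays. A gene's value is the mean of its measured probes. Within each of the 268 probes with at least 8 replicate spots, the spot differences scattered with a median SD of 0.05. Precision is limited by having 1 array per group. Members were counted at 2-fold and lists at 1.5-fold.

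The members and the 11 lists (200 genes) were chosen with earlier results of these data known. Named were all members, all measured actin isoforms, up to 2 genes per direction from each other list that were at least 1.5-fold apart and over 2 errors, markers above background on neither array, 5 genes with the nearest pair of levels and 3 neighbours on each side. A few genes chosen this way are left out of the text.

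Alternatives were median scaling, scaling to 8 spike-in probes, quantile normalization, cyclic loess and normexp (limma 3.58.1 in R 4.3.3), the value table, no filter, brighter probes and the brightest probe. Python 3.11.15, numpy 2.4.6 and pandas 2.3.3 were used, and the scripts were tested on simulated data.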

Additional observations from a re-analysis of the deposited data

How the results depend on the processing

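Of 179 values computed under 9 alternatives and other fold sizes, 167 stayed within 1.96 errors of the value reported (counts within 1.5 times). Avil was at -5.60 with normexp. The median of the members was 1.66 among the brighter probes, where Avil and Vil1 gave no value. With normexp the median was 0.14 for enterocyte, -0.20 for photoreceptor and -0.11 for sensory neuron markers. With no filter it was 0.092 for enterocyte, 0.030 for photoreceptor and -0.22 for tuft cell markers. Among the brighter probes it was -0.19 for photoreceptor and 2.46 for tuft cell markers, and with the brightest probe 0.082 for actin isoforms. These medians rest on few or dim genes; the cause was not tested. Among members named singly, Vil1 turned to -0.15 with normexp, Flii to -0.09 with median scaling, and Svil reached 2-fold with spike-in scaling. Gsn ran from 2.08 to 2.503, Capg from 1.83 to 2.25 and Vill from 1.55 to 1.97.

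Over all genes, the median shifted by -0.12 with median scaling and by 0.30 with spike-in scaling, as did every gene. Genes at least 2-fold apart were 1520 higher and 769 lower (66.4% higher), against 1262 and 1088 with median scaling (53.7%), 2405 and 361 with spike-in scaling (86.9%), 742 and 421 with normexp, 2274 and 1741 with no filter, and 625 and 349 among brighter probes. No paired analysis was possible because each group has 1 array. Signal over background limits Vil1 and Scin.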
